A study of Mus musculus with 17 samples.

Results

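Transcripts of 10 genes of autophagy and mitophagy were examined in the mouse diaphragm: *Map1lc3a*, *Map1lc3b*, *Gabarap*, *Gabarapl1*, *Sqstm1*, *Bnip3*, *Bnip3l*, *Ulk1*, *Atg12* and *Tfeb*. The members were chosen by symbol, 10 of the 47643 genes listed, and all 10 were among the 13305 genes that reached 1 TPM (a transcript level per length, scaled to the same sum in every library) in at least 3 samples. The diaphragms came from C57BL/6J males aged 4 months. Of the tumor-free animals, 5 had mock injections (Control) and 5 had rFibcd1 (Control + rFibcd1), and of the tumor-bearing animals 3 had mock injections (LLC) and 4 had rFibcd1 (LLC + rFibcd1). The tumors were of Lewis lung carcinoma (LLC), an established mouse cell line, and grew from cells placed under the skin of both flanks. rFibcd1 is a recombinant C-terminal fragment of mouse Fibcd1, a protein that muscle secretes, and was given into the peritoneal cavity in the last week. The mock solution was albumin in saline, so all 17 mice were injected. The comparisons address how these transcripts differ with a tumor and with rFibcd1.

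Autophagy encloses cytoplasm in a double membrane, the autophagosome, and delivers it to lysosomes for breakdown. A kinase complex around Ulk1 starts the process, a lipid kinase marks the growing membrane, and the Atg12 conjugation system attaches small proteins of the ATG8 family (the LC3 and GABARAP groups) to it. Receptors such as Sqstm1 (p62) bind cargo and ATG8 proteins together, Bnip3 and Bnip3l do the same for mitochondria, which is called mitophagy, and Tfeb switches on lysosomal and autophagy genes. In skeletal muscle the pathway clears damaged organelles and takes part in protein loss during atrophy, and several of its transcripts are known targets of FoxO factors. Transcript levels do not measure autophagic flux.

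In tumor-bearing mice (LLC and LLC + rFibcd1, n = 7), 5 members were higher than in tumor-free mice (n = 10): *Gabarap*, *Gabarapl1*, *Map1lc3b*, *Bnip3* and *Bnip3l*. The changes were small, 10.1% to 22.9% on the scale of TPM + 1, and no member was lower. With median-ratio scaling of the libraries 2 members were called, where 36.2% of all genes were. They were *Gabarap* higher and *Tfeb* lower (-0.19, adjusted p = 0.0198), and *Tfeb* was called lower under each of the 3 rescalings tried. With TPM as deposited, the share of members called, 50% at an adjusted p under 0.05, lay near the 44.8% of all genes tested. The median change of the members, 0.14 on the log2 scale, was also near the median of all genes, 0.13. *Gabarap* was the only member whose tumor-bearing mice all lay above all tumor-free mice, and 2.26% of all genes were apart between these groups in either direction. No member passed the test for rFibcd1, where 0.113% of all genes were called with a tumor and 0% without.

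Several measures of the whole libraries moved with the groups. Mitochondrially encoded transcripts took a mean ± SD of 47.1% ± 1.09 of all TPM in Control, 47.8% ± 1.93 in Control + rFibcd1, 42.9% ± 1.53 in LLC and 45.2% ± 1.48 in LLC + rFibcd1, and TPM of other genes are larger where this share is smaller. The summed level of 10 muscle genes, which checks the tissue, was 45383 to 58587 TPM, with 6 of the 10 lower in tumor-bearing mice. Immune markers were higher with the tumor: 9 of 9 B cell, 4 of 5 plasma cell, 7 of 7 T cell and 4 of 7 macrophage markers passed the test. So did 6 of 6 red cell markers. The B cell markers summed to 2.77 to 113 TPM in Control, 3.95 to 162 in Control + rFibcd1, 261 to 334 in LLC and 20.7 to 321 in LLC + rFibcd1. The macrophage markers summed to 132 to 229, 87.2 to 362, 310 to 379 and 157 to 358 TPM in the same order, and the red cell markers to 3848 to 20312, 3918 to 20823, 14168 to 46940 and 14771 to 20954 TPM. Of these 3 lists only the B cell marker *Cr2* was at 0 in some mouse. All 5 neutrophil markers tested and 4 of 6 endothelial markers were also higher with the tumor. The neutrophil markers summed to 1.84 to 14.3, 2.87 to 78.4, 45.0 to 106 and 55.0 to 206 TPM in the same order, with *Ly6g* at 0 in some mice, and the endothelial markers to 168 to 202, 162 to 194, 187 to 213 and 214 to 238 TPM. Liver markers summed to 3159 TPM in Control + rFibcd1 replicate 2 and to at most 319 TPM in the other mice. In bulk tissue, a change in the makeup of cells and a change of RNA per cell cannot be told apart.

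The members spanned a wide range of levels. Averaged over the 17 mice, *Bnip3* was at 268 TPM, *Map1lc3a* at 251, *Sqstm1* at 190, *Gabarap* at 161, *Map1lc3b* at 91.1 and *Gabarapl1* at 82.5 TPM. The remaining 4 were lower, *Bnip3l* at 36.0, *Ulk1* at 25.4, *Atg12* at 16.9 and *Tfeb* at 15.998 TPM. In Control mice, neighbours in the order of mean level did not overlap, except *Map1lc3a* with *Bnip3* and *Tfeb* with *Atg12*. The estimated reads behind a value ran from 1942 for *Tfeb* to 23829 for *Bnip3*, at 50.7 to 54.6 reads per sample in units of 1000000.

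**Figure D1:**
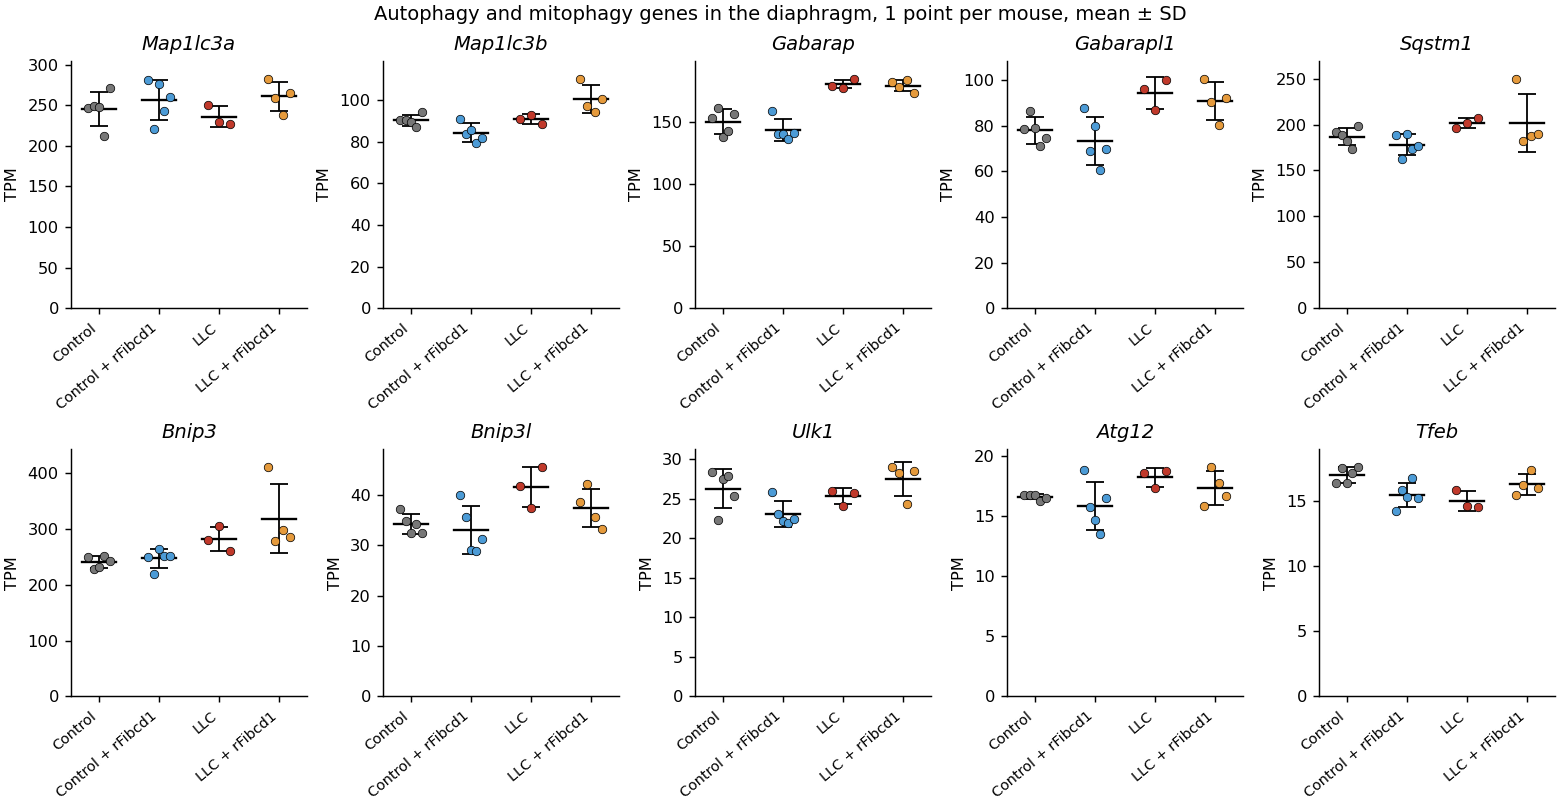
Level of each of the 10 members (y axis, TPM, from 0) in each mouse (points) of the 4 groups (x axis), with the mean and SD. The 7 tumor-bearing mice lie between 173.8 and 184.7 TPM for *Gabarap*, above all tumor-free mice, while the groups overlap for most other members.

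Promoter sequence is shown for the 3 members with the largest changes in tumor-bearing mice, *Bnip3*, *Gabarap* and *Gabarapl1*. RefSeq promoter windows on GRCm38.p6, from 250 bases before to 50 after a gene start, were matched for 7 of the 10 members, not for *Map1lc3a*, *Bnip3l* and *Atg12*. The windows lie at chr7:138909457-138909756 on the minus strand for *Bnip3*, chr11:69991120-69991419 on the plus strand for *Gabarap*, and chr6:129532942-129533241 on the plus strand for *Gabarapl1*. They are written 5′ to 3′ along the gene, and capitals mark CACGTG.
Bnip3: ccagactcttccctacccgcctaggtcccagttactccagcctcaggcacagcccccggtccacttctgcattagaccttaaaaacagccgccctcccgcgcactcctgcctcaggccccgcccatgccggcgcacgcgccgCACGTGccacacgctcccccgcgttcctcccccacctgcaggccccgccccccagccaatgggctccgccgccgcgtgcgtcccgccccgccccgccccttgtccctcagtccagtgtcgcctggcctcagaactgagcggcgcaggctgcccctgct
Gabarap: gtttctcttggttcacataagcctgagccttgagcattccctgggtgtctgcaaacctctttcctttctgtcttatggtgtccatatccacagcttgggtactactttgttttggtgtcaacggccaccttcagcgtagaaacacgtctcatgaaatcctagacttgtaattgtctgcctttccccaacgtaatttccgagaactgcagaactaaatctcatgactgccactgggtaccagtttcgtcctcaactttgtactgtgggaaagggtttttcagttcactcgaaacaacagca
Gabarapl1: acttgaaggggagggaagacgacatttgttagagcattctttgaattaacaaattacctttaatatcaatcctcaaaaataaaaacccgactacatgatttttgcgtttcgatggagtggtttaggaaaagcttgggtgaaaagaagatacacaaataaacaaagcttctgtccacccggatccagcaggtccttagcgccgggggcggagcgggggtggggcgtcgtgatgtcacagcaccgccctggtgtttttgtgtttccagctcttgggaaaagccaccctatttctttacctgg

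The letters CACGTG, the core of the E-box that Tfeb relatives and hypoxia factors can bind, occurred in the *Bnip3* window, starting 108 bases before the gene start, and in no other of the 7 members with a window. Of 32851 promoter windows of the same length, 7.15% held these letters. TGACNNNGC, the core of the antioxidant element, was found in *Map1lc3b* alone of the members, starting at position 4 counted from the gene start, and in 12.4% of all windows. GTAAACA, a FoxO box, was found in none of the members' windows and in 3.65% of all. GGGCGG, the core of the GC box, was found in windows of 6 of the 7 members, all but *Gabarap*, and in 35.7% of all windows. It occurred at 6 places in *Bnip3*, of which neighbours near the gene start share a base, and at 2 in *Gabarapl1*. Each motif was searched on both strands, and none of them contains another. The *Bnip3* window was 71.7% G and C, against 45.7% in *Gabarap* and 46.3% in *Gabarapl1*. The *Gabarap* window contains the GENCODE start of the gene (69991143) at its 5′ side, so the annotations place the start differently. Most of this window lies downstream of that start, inside the gene in GENCODE. Its G and C share and its lack of GGGCGG may therefore not describe the promoter.

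Among the ATG8 genes, *Gabarap* encodes a small ubiquitin-like protein that is attached to the autophagosome membrane (chr11:69991143-69994951, plus strand, GENCODE vM21 on GRCm38). Its level was 138, 143, 153, 157 and 162 TPM in the Control mice. In Control + rFibcd1 it was 137, 140, 141, 141 and 159 TPM. In LLC it was 178, 180 and 185 TPM, and in LLC + rFibcd1 174, 178, 182 and 185 TPM. Every tumor-bearing mouse lay above every tumor-free mouse, while the 2 tumor groups overlapped each other. The log2 change in tumor-bearing against tumor-free mice was 0.29 ± 0.037 (SE), with a limma adjusted p of 0.000318, and it exceeded the median of all genes by 0.16.

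*Gabarap* also passed the test in the 3 pairings of a tumor group with a tumor-free group that were run. It was higher by 0.27 in LLC than in Control (adjusted p = 0.00969), by 0.26 in LLC + rFibcd1 than in Control (adjusted p = 0.0127) and by 0.32 in LLC + rFibcd1 than in Control + rFibcd1 (adjusted p = 0.00278). Between LLC + rFibcd1 and LLC the difference was -0.0090, with a 95% interval of -0.13 to 0.11. The change in all tumor-bearing mice passed with median-ratio scaling of the libraries (0.14, adjusted p = 0.0138), with quantile normalization (0.16, adjusted p = 0.00354) and with each single mouse left out. Against Control alone the LLC change did not pass after median-ratio scaling (0.082, adjusted p = 0.295), after quantile normalization (0.089, adjusted p = 0.168) or without LLC replicate 3 (0.25, adjusted p = 0.0694). Nor did it pass with a B cell (0.19, adjusted p = 0.253), macrophage (0.19, adjusted p = 0.168), red cell (0.19, adjusted p = 0.130) or neutrophil score as a covariate (0.24, adjusted p = 0.146) or with the Dunn test (adjusted p = 0.120). Of all 13305 genes these fits called 7 (B cell), 4 (macrophage) and 0 (red cell, neutrophil and Dunn) in LLC against Control. Not passing in them was thus not particular to *Gabarap*. At an unadjusted p under 0.05 the last 3 held 3405, 3432 and 4993 genes.

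The B cell and macrophage markers moved with *Gabarap* across the groups but not in every mouse. LLC + rFibcd1 replicates 1 and 4 had B cell sums of 20.7 and 25.5 TPM and macrophage sums of 157 and 176 TPM, inside the range of the tumor-free mice, and *Gabarap* at 182 and 174 TPM, above it. The neutrophil sums of these 2 mice were 89.5 and 55.0 TPM, the first above all tumor-free mice and the second above all but Control + rFibcd1 replicate 3 (78.4 TPM), and their endothelial sums, 214 TPM each, were above all tumor-free mice. The muscle sum of replicate 4, 50281 TPM, was below all tumor-free mice, and its red cell sum, 20954 TPM, above them. The same sums of replicate 1, 53795 and 14771 TPM, were inside the range of the tumor-free mice. Control + rFibcd1 replicate 1 had the highest B cell (162 TPM) and macrophage (362 TPM) sums among tumor-free mice, and *Gabarap* there was 159 TPM. With a marker score as a covariate the *Gabarap* change in tumor-bearing mice was 0.24 for B cells (adjusted p = 0.0112), 0.24 for macrophages (adjusted p = 0.00620) and 0.23 for red cells (adjusted p = 0.0150). With an endothelial score it was 0.33 (adjusted p = 0.0208). With a neutrophil score it was 0.26 and did not pass (adjusted p = 0.122). That fit called no gene of the whole table, with 2790 at an unadjusted p under 0.05. The part of these cells in the change was not tested further.

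*Gabarapl1*, the closest relative of *Gabarap* among the members (chr6:129533160-129542346, plus strand), was at 70.9, 74.7, 78.5, 79.1 and 86.5 TPM in Control. It was at 60.6, 68.9, 69.6, 79.8 and 87.9 TPM in Control + rFibcd1. The LLC mice had 86.7, 96.3 and 100.1 TPM, and the LLC + rFibcd1 mice 80.2, 90.5, 92.1 and 100.3 TPM. The LLC mice lay just above the highest Control mouse, while LLC + rFibcd1 overlapped both tumor-free groups. The change in tumor-bearing mice was 0.29 ± 0.070 (limma, adjusted p = 0.00615), and in LLC against Control 0.27 (adjusted p = 0.0511). It did not pass in tumor-bearing mice with median-ratio scaling (0.14, adjusted p = 0.109) or with a B cell (0.25, adjusted p = 0.116), red cell (0.18, adjusted p = 0.176) or macrophage score (0.22, adjusted p = 0.106). These 3 score fits called 629, 561 and 928 of all 13305 genes. Nor did it pass with a neutrophil (0.13, adjusted p = 0.506) or endothelial score (0.40, adjusted p = 0.0792), fits that called 0 and 239 of all genes. The part of these cells was not tested further.

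*Map1lc3b*, which encodes LC3B, the ATG8 protein most used as an autophagosome marker (chr8:121590361-121598760, plus strand), showed another pattern. It was at 87.0, 89.6, 90.3, 90.4 and 94.4 TPM in Control and at 79.4, 82.1, 83.8, 85.9 and 91.2 TPM in Control + rFibcd1. LLC mice had 88.5, 91.1 and 93.1 TPM, and LLC + rFibcd1 mice 94.3, 97.1, 100.6 and 110.0 TPM. The LLC mice were inside the Control range, and the LLC + rFibcd1 mice were above all LLC and all Control + rFibcd1 mice. LLC differed from Control by 0.0095 (95% interval -0.099 to 0.12), whereas LLC + rFibcd1 exceeded Control + rFibcd1 by 0.25 ± 0.047 (limma, adjusted p = 0.00677). The latter passed in 7 of 14 other settings, which gave 0.11 to 0.34 (adjusted p up to 0.369, with median-ratio scaling).

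The rise of *Map1lc3b* in all tumor-bearing mice, 0.14 ± 0.034 (adjusted p = 0.00681), was 0.0082 from the median of all genes and turned to -0.011 with median-ratio scaling. LLC + rFibcd1 against LLC gave 0.14 (adjusted p = 0.198), and the interaction of tumor and rFibcd1 gave 0.24 (unadjusted p = 0.00362, adjusted p = 0.217). Reads of *Map1lc3b* are uncertain, since its locus overlaps *Gm20388* on the same strand (15.9 to 23.8 TPM) and *Zcchc14* on the other (10.5 to 13.2 TPM).

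*Map1lc3a*, which encodes LC3A, was the most abundant of the ATG8 genes (chr2:155276297-155278073, plus strand). It ranged from 212 to 271 TPM in Control, 221 to 281 in Control + rFibcd1, 227 to 251 in LLC and 238 to 282 TPM in LLC + rFibcd1, and all groups overlapped. Its change in tumor-bearing mice was -0.0010 ± 0.057 (limma, adjusted p = 0.991), with a 95% interval of -0.12 to 0.12. *Gabarapl2*, the remaining ATG8 gene of the pathway list, was higher by 0.12 in tumor-bearing mice (adjusted p = 0.00979), just under the median of all genes, 0.13.

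Shares within a mouse do not depend on the scaling of its library. Of the summed TPM of the 5 ATG8 genes, *Gabarap* made up 24.5% in Control, 23.7% in Control + rFibcd1, 27.6% in LLC and 26.2% in LLC + rFibcd1 on average. *Map1lc3a* made up 39.9%, 42.2%, 35.9% and 38.0% in the same order. The ratio of *Gabarap* to *Map1lc3a* was 0.557 to 0.673 in Control and 0.716 to 0.812 in LLC, which did not overlap. It was 0.509 to 0.634 in Control + rFibcd1 and 0.647 to 0.775 in LLC + rFibcd1, which did not overlap either, while LLC + rFibcd1 overlapped both Control and LLC. These ratios show unequal change of the 2 genes and not which of them changed.

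**Figure D2:**
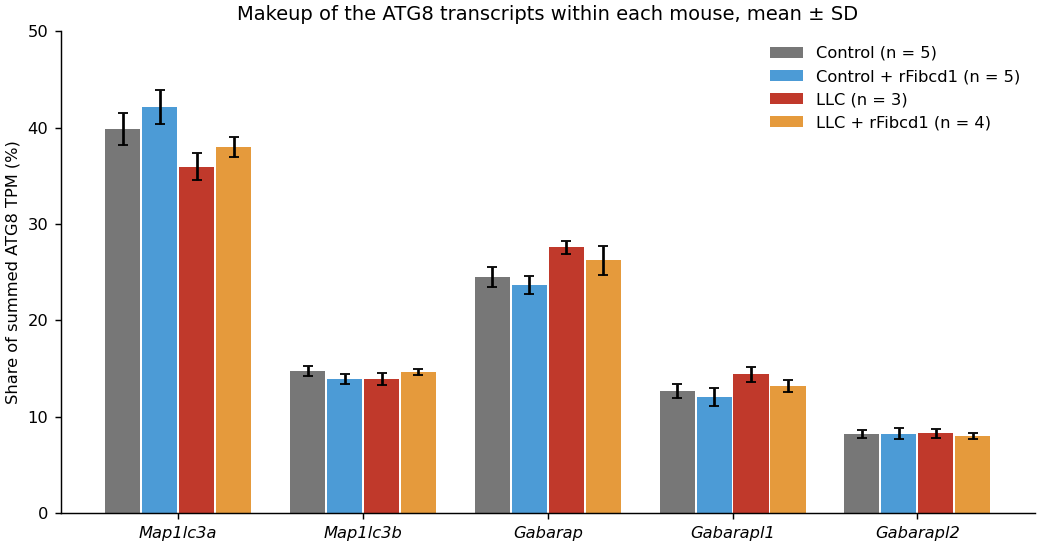
Share of each ATG8 gene in the summed TPM of the 5 ATG8 genes (y axis, percent, from 0) as the group mean with SD, by gene (x axis) and group (color). *Gabarap* stands at 27.6% in LLC against 24.5% in Control, and *Map1lc3a* at 35.9% against 39.9%.

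Among the cargo and mitophagy receptors, *Bnip3* encodes an outer mitochondrial membrane protein that recruits ATG8 proteins and is induced by low oxygen (chr7:138890836-138909519, minus strand). It was at 229, 231, 243, 250.2 and 251 TPM in Control. In Control + rFibcd1 it was at 220, 251, 251, 252 and 265 TPM. In LLC it was at 261, 280 and 306 TPM, and in LLC + rFibcd1 at 279, 286, 298 and 411 TPM. All tumor-bearing mice exceeded all Control mice, and the LLC mouse at 261 TPM fell below the highest Control + rFibcd1 mouse.

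The change of *Bnip3* in tumor-bearing mice was 0.30 ± 0.069 (limma, adjusted p = 0.00512), 0.17 above the median of all genes. Without LLC + rFibcd1 replicate 1, the mouse at 411 TPM, it was 0.22 (adjusted p = 0.00220). It passed with a B cell (0.36, adjusted p = 0.0305), red cell (0.36, adjusted p = 0.0388) or macrophage score as a covariate (0.35, adjusted p = 0.0261). It did not pass with a neutrophil (0.22, adjusted p = 0.309) or endothelial score (0.38, adjusted p = 0.0949), fits that called 0 and 239 of all genes. Nor did it pass with median-ratio scaling (0.15, adjusted p = 0.237). LLC + rFibcd1 exceeded Control by 0.38 (adjusted p = 0.0410) and Control + rFibcd1 by 0.35 (adjusted p = 0.0368), and the change without replicate 1 was 0.25 (adjusted p = 0.0499) and 0.22 (adjusted p = 0.0434). The first did not pass in 8 of the 17 fits with a mouse left out (Control replicates 1 to 5, Control + rFibcd1 replicate 5, LLC + rFibcd1 replicate 3 and LLC replicate 1, adjusted p up to 0.0912). The second did not in 4 (Control + rFibcd1 replicates 2, 4 and 5 and LLC + rFibcd1 replicate 3, adjusted p up to 0.0853). Each passed in 4 of 14 other settings (adjusted p up to 0.687 and 0.408), and neither with median-ratio scaling or with a neutrophil or endothelial score, where the scores left at most 34 of all genes called. The Dunn test called no gene in the 5 comparisons it was run on. LLC exceeded Control by 0.23 without passing (adjusted p = 0.0941).

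*Bnip3l*, which encodes Nix, a mitophagy receptor that also clears mitochondria from maturing red cells (chr14:66985239-67008877, minus strand), was at 32.4 to 37.3 TPM in Control and 28.99 to 39.99 TPM in Control + rFibcd1. It was at 37.5, 41.9 and 45.5 TPM in LLC and 33.2, 35.7, 38.7 and 42.2 TPM in LLC + rFibcd1. The LLC mice lay above the Control mice by a narrow margin, and LLC + rFibcd1 overlapped all other groups. The highest value, 45.5 TPM, was in LLC replicate 3, which also had the highest red cell sum, 46940 TPM. Other mice did not follow that order. LLC replicate 1, at 41.9 TPM, had the lowest red cell sum of the tumor-bearing mice, 14168 TPM. LLC + rFibcd1 replicate 4, the lowest of them at 33.2 TPM, had a sum of 20954 TPM. The part of red cells was not tested further. The change in tumor-bearing mice was 0.22 ± 0.069 (limma, adjusted p = 0.0214). It did not pass without LLC replicate 3 (0.18, adjusted p = 0.0687), without LLC replicate 1 (0.20, adjusted p = 0.0529) or with a red cell score as a covariate (0.090, adjusted p = 0.446). Of 12 other settings it passed in 3, with changes of 0.069 to 0.22 and adjusted p up to 0.472. It did not pass with median-ratio scaling (0.069, adjusted p = 0.254), with quantile normalization (0.079, adjusted p = 0.224) or without mitochondrially encoded genes (0.13, adjusted p = 0.0784), nor with any of the other 4 marker scores. The fits with a score called from 0 (neutrophil) to 928 (macrophage) of all genes.

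*Sqstm1*, the cargo receptor p62, which is itself degraded by autophagy (chr11:50199366-50210827, minus strand), did not pass in any comparison. It ranged from 174 to 198 TPM in Control, 162 to 190.2 in Control + rFibcd1, 196 to 207 in LLC and 182 to 249 TPM in LLC + rFibcd1, where replicate 1 was the highest. The change in tumor-bearing mice was 0.14 ± 0.058 (limma, adjusted p = 0.0604). With median-ratio scaling it was -0.011.

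Among the regulators, *Tfeb* encodes a transcription factor of lysosome biogenesis (chr17:47737030-47792419, plus strand) and was the only member called lower anywhere. It was at 16.3, 16.4, 17.2, 17.5 and 17.5 TPM in Control and at 14.5, 14.5 and 15.8 TPM in LLC. It was at 14.2, 15.2, 15.3, 15.8 and 16.7 TPM in Control + rFibcd1 and at 15.5, 15.95, 16.2 and 17.4 TPM in LLC + rFibcd1. All LLC mice lay below all Control mice, and the rFibcd1 groups overlapped both. LLC was lower than Control by 0.17 ± 0.053 on the log2 scale (change -0.17, limma, adjusted p = 0.0235), which is -0.33 relative to the median of all genes.

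With rescaling, the *Tfeb* change in LLC against Control was -0.28 without mitochondrially encoded genes (adjusted p = 0.0119), -0.35 with median-ratio scaling (adjusted p = 0.0131) and -0.40 with quantile normalization (adjusted p = 0.00587). In all tumor-bearing mice it was -0.044 as deposited (adjusted p = 0.326), and -0.13, -0.19 and -0.21 under the same 3 scalings (adjusted p = 0.0350, 0.0198 and 0.0113). The LLC change did not pass without LLC replicate 2 (-0.16, adjusted p = 0.0617), LLC replicate 3 (-0.15, adjusted p = 0.110) or Control replicate 5 (-0.16, adjusted p = 0.0508), or with a B cell (-0.16, adjusted p = 0.335), macrophage (-0.13, adjusted p = 0.284), red cell (-0.12, adjusted p = 0.222) or neutrophil score (-0.087, adjusted p = 0.427), fits that called at most 7 of all genes. With an endothelial score it was -0.19 (adjusted p = 0.0294). The interaction of tumor and rFibcd1 was 0.24 (unadjusted p = 0.00432, adjusted p = 0.228).

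*Ulk1*, the kinase that starts autophagosome formation (chr5:110784488-110810097, minus strand), was at 22.3 to 28.3 TPM in Control, 21.9 to 25.8 in Control + rFibcd1, 24.1 to 25.98 in LLC and 24.3 to 28.9 TPM in LLC + rFibcd1. It did not pass in tumor-bearing mice (0.11, adjusted p = 0.114) and came closest in LLC + rFibcd1 against Control + rFibcd1 (0.24, adjusted p = 0.0505). *Atg12*, the ubiquitin-like protein of the conjugation system (chromosome 18, minus strand), spread by only 16.3 to 16.8 TPM in Control but by 13.5 to 18.9 TPM in Control + rFibcd1. It was 17.3 to 18.8 TPM in LLC and 15.9 to 19.1 TPM in LLC + rFibcd1, with a change of 0.12 in tumor-bearing mice (adjusted p = 0.0794).

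By comparison, the members called in LLC against Control were *Gabarap* (higher) and *Tfeb* (lower), 20% of the members against 35.8% of all genes. In the same comparison 6 members had groups that did not overlap, *Gabarap*, *Gabarapl1*, *Bnip3*, *Bnip3l* and *Atg12* higher and *Tfeb* lower, where 40.2% of all genes were apart. In LLC + rFibcd1 against Control, *Gabarap* and *Bnip3* were called, against 3.08% of all genes, and the same 2 were apart, against 8.88%. In LLC + rFibcd1 against Control + rFibcd1, *Map1lc3b*, *Gabarap* and *Bnip3* were called, against 8.06%, and the same 3 were apart, against 8.91%. These comparisons share samples and are not independent of one another.

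**Figure D3:**
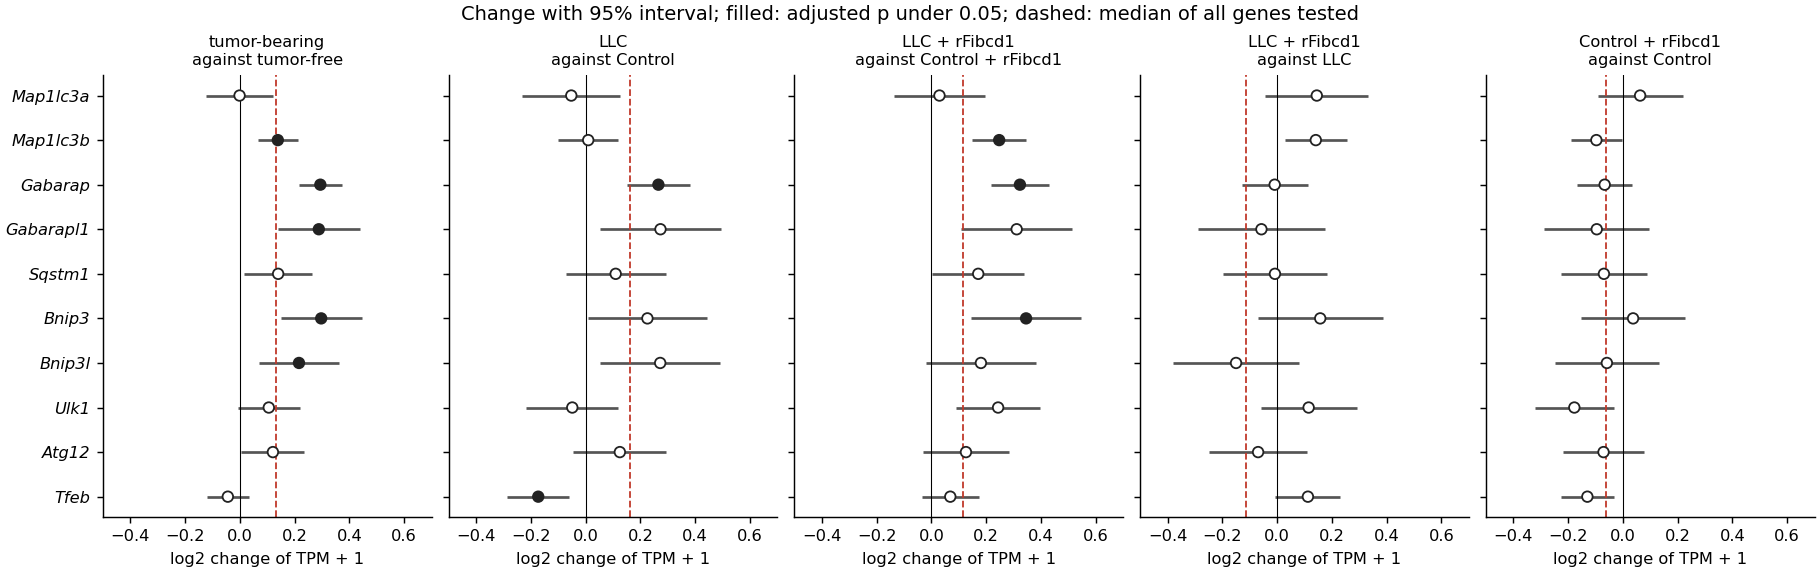
Log2 change of TPM + 1 (x axis) with its 95% interval for each member (y axis) in 5 comparisons, filled where the adjusted p is under 0.05, with the median of all genes dashed. *Gabarap* is filled in the 3 tumor comparisons and lies beyond the median of all genes. No member is filled for rFibcd1, where at most 0.113% of all genes were called.

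For rFibcd1, no member passed in LLC + rFibcd1 against LLC, where 0.113% of all genes were called (15 of 13305) and 1 member had an unadjusted p under 0.05, *Map1lc3b*, against 22.7% of all genes (3025). That was also the 1 member whose groups were apart there, against 14.6% of all genes. The members' median change was 0.052, against -0.11 over all genes. In Control + rFibcd1 against Control no gene was called (0% of 13305, with 584 genes at an unadjusted p under 0.05), no member was apart where 0.812% of all genes were, and *Map1lc3b* (-0.097), *Ulk1* (-0.18) and *Tfeb* (-0.13) had an unadjusted p under 0.05. The interaction likewise gave 0% of genes called (1142 unadjusted), and *Map1lc3b*, *Ulk1* (0.29) and *Tfeb* were the members at an unadjusted p under 0.05. Intervals of the rFibcd1 difference in tumor-bearing mice reached from -0.38 to 0.079 for *Bnip3l* and from -0.071 to 0.39 for *Bnip3*, and the test left differences within those intervals undecided.

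**Figure D4:**
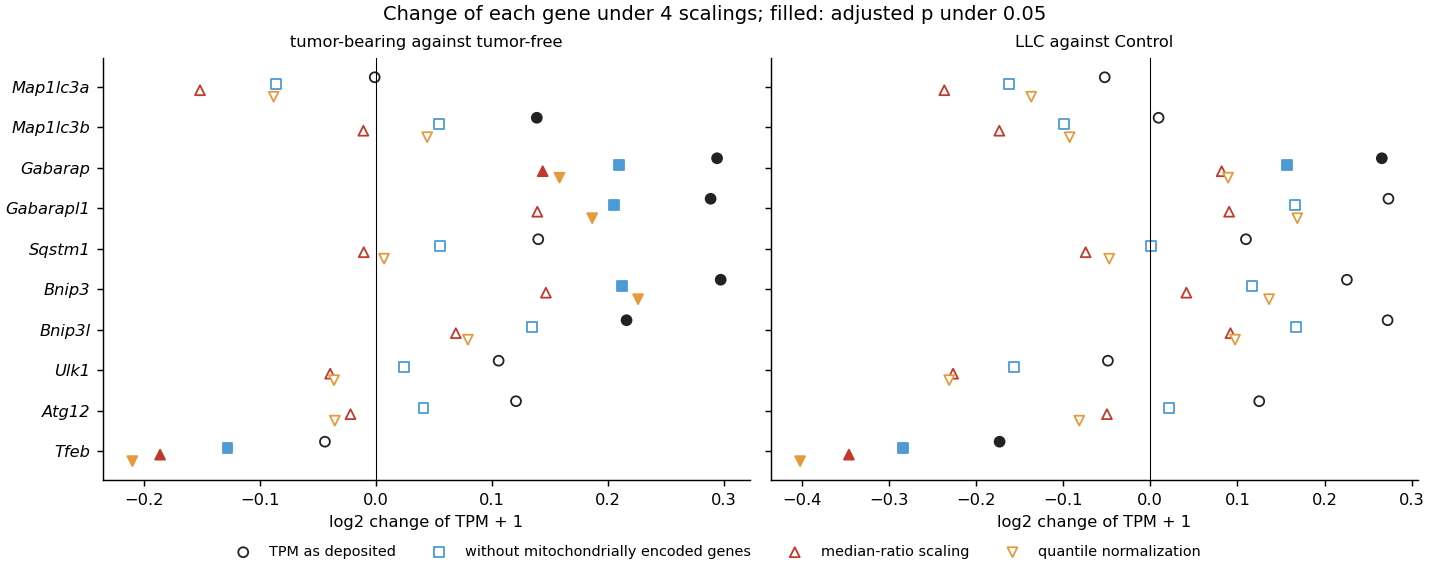
Log2 change of each member (y axis) with 4 scalings of the libraries (markers), in tumor-bearing against tumor-free mice and in LLC against Control, filled where the adjusted p is under 0.05. *Gabarap* is filled in all 4 scalings in the tumor-bearing comparison, and *Tfeb* is filled below 0 in 3 of the 4 there and in all 4 in LLC against Control.

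The members were set beside lists of autophagy genes by role, 104 genes of which 101 could be tested (*Atg9b*, *Tfec* and *Atp6v0d2* were too low). In tumor-bearing mice 43 were higher and 2 lower, 44.6% called, with a median change of 0.12 against 0.13 over all genes. In LLC against Control 30 were higher and 4 lower, 33.7% called. In LLC + rFibcd1 against LLC none passed, where 0.113% of all genes did. There 26 of them had an unadjusted p under 0.05, against 22.7% of all genes. Over the whole pathway, then, the shares called were near those of all genes.

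Of 19 lysosomal genes of the Tfeb network, 15 were higher in tumor-bearing mice and 13 in LLC against Control, with none lower and median changes of 0.20 and 0.26. Over all genes 38.8% were higher in the first comparison and 29.7% in the second, and the difference of this role from the other genes was not tested. *Sgsh*, which encodes a heparan sulfatase, was higher by 0.67 in LLC against Control (limma, adjusted p = 0.00791). With macrophage, B cell or red cell scores as covariates 5, 4 and 3 of the 19 were called in tumor-bearing mice, where these fits called 6.97%, 4.73% and 4.22% of all genes. In LLC against Control none of the 19 was called with these scores, nor in either comparison with a neutrophil score, in fits that called between 0 and 7 of all genes, and with an endothelial score 1 was in tumor-bearing mice and 12 in LLC against Control. In the latter comparison none was called without LLC replicate 3 and 7 without LLC replicate 1, in fits that called 24 and 2254 of all genes. With median-ratio scaling 6 of the 19 and with quantile normalization 7 were called there, against 29.6% and 35.2% of all genes. The macrophage sums given above were 310 to 379 TPM in LLC and 132 to 229 TPM in Control.

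Of 7 genes of the lipid kinase complex, 5 were higher in each comparison, where 38.8% and 29.7% of all genes were. *Becn1*, *Pik3r4*, *Uvrag* and *Rubcn* were called in both, *Atg14* in tumor-bearing mice and *Pik3c3* in LLC against Control. *Uvrag*, a subunit that serves autophagosome maturation, was higher by 0.35 in LLC against Control (adjusted p = 0.0111), and *Rubcn*, an inhibitor of that step, by 0.34 (adjusted p = 0.0176). Without LLC replicate 3 none of the 7 was called in LLC against Control, and 2 were without LLC replicate 1. With median-ratio scaling 2 and with quantile normalization none were called there, against 29.6% and 35.2% of all genes. Of 11 genes of the conjugation machinery 4 were higher and 1 lower in LLC against Control, among them *Atg16l2* (0.37, adjusted p = 0.0245) and *Atg10* (-0.28, adjusted p = 0.0122), the E2-like enzyme for Atg12. The initiation complex had 1 of 6 higher in tumor-bearing mice, *Ambra1* (0.090, adjusted p = 0.0435), which moved less than the median gene (0.13), and none called in LLC against Control.

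Of 11 mitophagy genes, 6 were higher in tumor-bearing mice, where 38.8% of all genes were, including both Bnip3 genes, *Fkbp8* (0.19, adjusted p = 0.00279) and *Usp30* (0.18, adjusted p = 0.0115), which encode a mitophagy receptor and a deubiquitinase that restrains mitophagy. *Pink1*, the kinase that marks damaged mitochondria, was lower by 0.31 in LLC than in Control (change -0.31, limma, adjusted p = 0.00996). Between LLC + rFibcd1 and LLC it differed by 0.34 without passing (adjusted p = 0.0714). *Tbk1*, a kinase of cargo receptors, was higher by 0.27 in LLC against Control (adjusted p = 0.0228). Of 12 cargo receptors 2 were higher in tumor-bearing mice, against the same 38.8% of all genes. They were *Tex264* (0.27, adjusted p = 0.00819) and *Ccpg1* (0.11, adjusted p = 0.0167), both receptors for the endoplasmic reticulum, the latter below the median of all genes.

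Among 10 fusion genes 4 were higher in tumor-bearing mice, against 38.8% of all genes, with *Plekhm1* (0.31, adjusted p = 0.00408) and *Vamp8* (0.23, adjusted p = 0.0150) the largest. *Snap29*, which pairs with Vamp8 in fusion, was higher by 0.25 in LLC against Control (adjusted p = 0.0315). Of 9 genes of membrane supply 1 was higher, *Wipi2* (0.17, adjusted p = 0.0133), against the same 38.8%. Of 11 regulators *Tfe3*, a relative of *Tfeb*, was higher by 0.23 in tumor-bearing mice (adjusted p = 0.0215) and 0.32 in LLC against Control (adjusted p = 0.0335), the opposite sign to *Tfeb*. *Prkaa2*, a catalytic subunit of AMPK, was lower in tumor-bearing mice (-0.28, adjusted p = 0.0216), and *Foxo4* in LLC against Control (-0.19, adjusted p = 0.0181). None of the LLC against Control calls of the pathway genes, *Pink1*, *Tbk1*, *Snap29*, *Tfe3* and *Foxo4* included, held without LLC replicate 3, with a B cell, red cell, macrophage or neutrophil score as a covariate, or with the Dunn test. These fits called few of all genes there, 24 without LLC replicate 3 and between 0 and 7 in the others, so the loss was not of pathway genes alone.

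**Figure D5:**
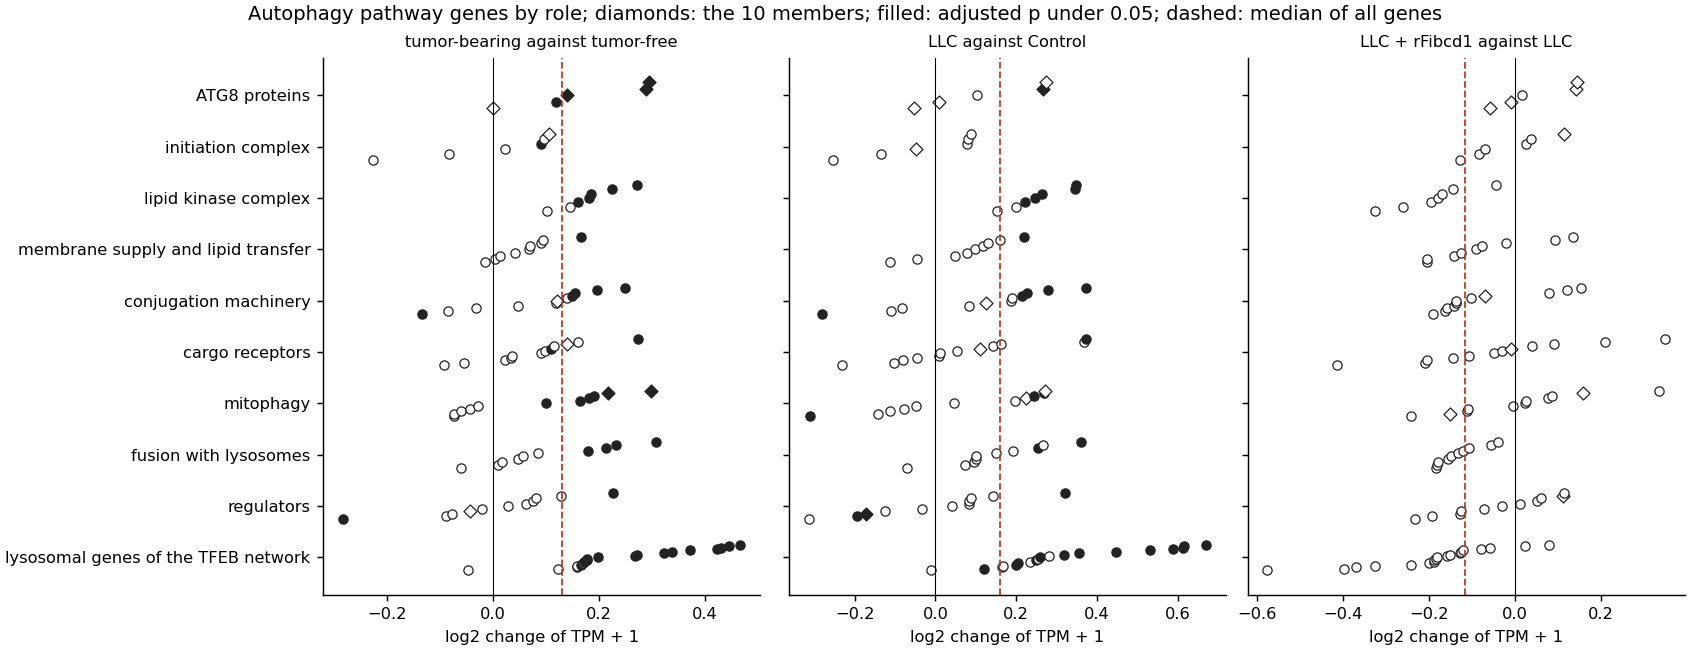
Log2 change of TPM + 1 (x axis) of the 101 autophagy genes tested, by role (y axis), in 3 comparisons, with the 10 members as diamonds, filled where the adjusted p is under 0.05, and the median of all genes dashed. The lysosomal genes hold 15 of 19 filled points in the tumor-bearing comparison. No point is filled for rFibcd1 in LLC mice, where 0.113% of all genes were called.

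The genes whose levels ran most alike with a member over the 17 mice are given as a description, since the mice share groups and cell makeup. *Gabarap* ran with *Il4ra* (Pearson r 0.96, and 0.80 after group means were removed) and *Adam15* (0.96 and 0.80). *Sqstm1* ran with the proteasome gene *Psmc2* (0.93 and 0.93), and *Gabarapl1* with *Emc3* and the ubiquitin gene *Ubb* (0.92 each). *Bnip3l* ran with *BC005537* (0.97) and *Atg12* with *Gnai3* (0.96), and *Map1lc3b* with *Gaa*, which encodes the lysosomal alpha-glucosidase (0.89). The lowest of these best matches was that of *Map1lc3a*, *2310075C17Rik* (0.80). Among the members, the closest pairs were *Gabarap* with *Gabarapl1* (0.83), *Bnip3l* with *Atg12* (0.82) and *Sqstm1* with *Bnip3* (0.79), the last including the mouse high in both. After group means were removed these were 0.55, 0.73 and 0.81, and *Map1lc3b* with *Sqstm1* reached 0.77.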

How the data were processed

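Diaphragm RNA of 17 mice was sequenced as poly(A) libraries in paired reads. The authors trimmed and filtered the reads, aligned them to GRCm38 (mm10) and quantified genes with CLC Genomics Workbench, and the deposited values are TPM. The annotation release is not given in the sources used here. The labels and the methods name different library kits, so whether counting used strand is unclear, and reads of genes that overlap on the other strand (*Map1lc3b*, *Gabarapl1*, *Sqstm1* and *Bnip3* each overlap at least one) cannot be told apart with certainty. Depth was estimated from the steps between low values with GENCODE vM21 exon lengths (45134 symbols matched). Between 80.8% and 83.6% of low values per sample fell within 0.02 of a whole read.

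Groups and replicate numbers came from the sample titles. The test was limma 3.58.1 in R 4.3.3 on log2(TPM + 1), which understates changes of low genes, where 1 TPM was reached in 3 or more samples. All 17 samples entered a model of the 4 groups with 13 residual degrees of freedom and an expression trend. Tests were two-sided, Benjamini-Hochberg adjustment covered the 13305 genes, and 0.05 was the threshold. limma replaced the rank test of the study, which was kept as an alternative (Dunn test). The fit was tested on simulated data. The members and lists were chosen with earlier results of these data known. Named pathway genes were, per role and comparison, the 2 non-members called with the largest change, or else the gene with the lowest p. Some genes that this rule names are not reported here. Alternatives were a pseudocount of 0.1, no filter, a filter of 5 TPM, median-ratio scaling, quantile normalization, rescaling without mitochondrially encoded genes, only the groups compared, a replicate block, a B cell score (mean log2 level of the marker list) as a covariate, Dunn's test and leaving out each mouse. Red cell, macrophage, neutrophil and endothelial scores were added after seeing the data. P-values measure the spread between these mice, and no batch label was given.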

Additional observations from a re-analysis of the deposited data

Results flagged for a closer look

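Of 30 combinations of a member and a group of 4 or 5 mice, 4 held a mouse that stood far from the rest by Dixon's test, which chance gives in about 1 of 20 groups. *Gabarap* was 158.9 TPM in Control + rFibcd1 replicate 1, with the nearest mouse at 141.2 TPM. That mouse also had the highest B cell (161.7 TPM), macrophage (362 TPM) and white adipocyte (514 TPM) marker sums of its group, and their part in the value was not tested. *Bnip3* was 410.6 TPM in LLC + rFibcd1 replicate 1, with the nearest mouse at 297.7 TPM. *Sqstm1* was 249.2 TPM in the same mouse, with the nearest at 190.0 TPM. This mouse had the lowest B cell sum of the tumor-bearing mice, 20.7 TPM. *Ulk1* was 24.3 TPM in LLC + rFibcd1 replicate 3, below the next mouse at 28.3 TPM.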

How the results depend on the processing

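*Gabarap* in tumor-bearing mice kept its direction in all 12 alternative settings (0.14 to 0.33) and passed in 11, not with the neutrophil score (0.26, adjusted p = 0.122), and with each of the 17 mice left out. *Bnip3* passed in 9 of 12 settings and all 17. *Gabarapl1* passed in 6 of 12, *Map1lc3b* in 4 and *Bnip3l* in 3. *Map1lc3b* reversed with median-ratio scaling (-0.011). The members called in tumor-bearing mice, 5 as reported, were 2 with median-ratio scaling (*Gabarap* and *Tfeb*) 2 with a B cell, red cell or macrophage score, 1 with the endothelial score and 0 with the neutrophil score. In LLC against Control, 2 as reported, they were 4 with a filter of 5 TPM, 1 with median-ratio scaling or quantile normalization, 6 with only the groups compared, 0 with the Dunn test or the B cell, red cell, macrophage or neutrophil score, and 0 to 4 with a mouse left out (0 without LLC replicate 3, 1 without Control replicate 5, 4 without Control + rFibcd1 replicate 1 or 4 or LLC + rFibcd1 replicate 1). In LLC + rFibcd1 against Control, 2 as reported, they were 1 without the filter, without mitochondrially encoded genes or with only the groups compared, 0 with median-ratio scaling, quantile normalization, the red cell, neutrophil or endothelial score or the Dunn test, and 1 to 2 with a mouse left out. In LLC + rFibcd1 against Control + rFibcd1, 3 as reported, they were 5 with a filter of 5 TPM, 1 with quantile normalization, without mitochondrially encoded genes or with only the groups compared, 0 with median-ratio scaling, the neutrophil or endothelial score or the Dunn test, and 2 to 7 with a mouse left out. The highest was without Control + rFibcd1 replicate 1, where the calls over all genes went from 1072 to 2895. The pathway genes called in tumor-bearing mice, 45 as reported, were 7, 6, 9, 0 and 2 with B cell, red cell, macrophage, neutrophil and endothelial scores. In LLC against Control, 34 as reported, they were 0 with the B cell, red cell, macrophage or neutrophil score or the Dunn test, and 0 to 43 with a mouse left out, with 15 without LLC replicate 1 and 0 without LLC replicate 3, where the calls over all genes went from 4759 to 24. In LLC + rFibcd1 against LLC, 0 as reported, 1 was called with the red cell score and 0 to 1 with a mouse left out. Over all genes, the fits with a score called 629 (B cell), 561 (red cell), 928 (macrophage), 239 (endothelial) and 0 (neutrophil) in tumor-bearing mice, against 5963 as reported. In LLC against Control they called 7 (B cell), 4 (macrophage), 0 (red cell and neutrophil) and 3348 (endothelial), and the Dunn test 0, against 4759 as reported, so members and pathway genes not called in the fits near 0 are not thereby shown to be unstable. The cause of these differences was not tested.

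Replicate numbers did not pair the mice: same-numbered mice of different groups had a median correlation of -0.061 in their deviations, over 0.1 in 4 of 22 pairs. With a replicate block the members called in LLC against Control were 0, those in LLC + rFibcd1 against Control 1, and the pathway genes in LLC against Control 0, and calls over all genes in LLC against Control went from 4759 to 5.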
